A study of Mus musculus with 16 samples.

Results

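Transcripts of DNA replication and mitosis were followed in cells of the mouse heart sorted as lymphatic endothelium. The genes were chosen by symbol, from a list of 44 cell cycle genes, and all 44 were among the 15895 genes of the deposited table. Of these, 15 act in DNA replication and repair and 29 in mitosis or in its preparation. The replication group holds 6 subunits of the licensing helicase (Mcm2, Mcm3, Mcm4, Mcm5, Mcm6 and Mcm7), 7 genes of the replication fork and of nucleotide supply (Pcna, Rrm1, Rrm2, Tyms, Pola1, Prim1 and Rfc3) and 2 recombination repair genes (Brca1 and Brca2). The mitotic group holds 7 cyclins and mitotic kinases (Ccna2, Ccnb1, Cdk1, Aurka, Aurkb, Plk1 and Ttk), 4 genes of the kinetochore and its checkpoint (Cenpe, Cenpf, Bub1 and Bub1b) and 7 of the spindle (Kif11, Kif15, Kif4, Tpx2, Nusap1, Hmmr and Aspm). It also holds 5 genes of the central spindle and cytokinesis (Kif20b, Kif23, Prc1, Anln and Ect2) and 6 of chromosome structure and proliferation (Smc2, Smc4, Ncapg, Ncapd2, Top2a and Mki67).

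The study took CD1 mice, an outbred stock, at 2 ages and gave them either myocardial infarction (MI) or the same operation without the infarct (sham), on postnatal day 1 (P1) or day 56 (P56). Hearts were collected 3 days later, and cells lacking CD45 (a leukocyte surface protein) but carrying CD31 and podoplanin were sorted for RNA sequencing, with 4 libraries per group. The groups are called sham neonates (sham P1), MI neonates (MI P1), sham adults (sham P56) and MI adults (MI P56). Neonatal ventricles were pooled in groups of 6, minced and digested with stirring, whereas the adults were males of 8 weeks whose hearts were digested by perfusion. Age therefore cannot be told apart from pooling, digestion and sex, while sham and MI were handled alike within an age. The labels name no transgene, deletion or drug in any group.

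Cells that divide first license their replication origins by loading the MCM helicase, then copy the genome with polymerases held on DNA by the sliding clamp PCNA, using deoxynucleotides that ribonucleotide reductase and thymidylate synthase supply. Cyclins switch on their partner kinases in turn, chromosomes are condensed and untangled by condensin and topoisomerase, kinetochores attach them to the spindle, and a contractile ring divides the cell. Most of these transcripts are scarce in resting cells and accumulate from late G1 (replication genes) or from S phase to mitosis (mitotic genes). Endothelium proliferates during growth of the heart after birth and is largely quiescent in the adult.

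Levels are given in the deposited unit, CPM (reads scaled to library size) adjusted by the trimmed mean of M-values (TMM), and libraries are named by the number of their table column (1, 2, 3 and 5 in each group). In 13 libraries 14121 to 15821 genes had a read, and 6709566 to 12918569 reads lay outside the mitochondrial ribosomal RNAs and Uqcrc1, a single gene that took most reads of some libraries. The other 3 libraries (sham P1 libraries 1 and 2 and MI P56 library 5) had a read on 7746 to 9451 genes and are left out of the values and tests below unless stated. A count of 3 reads was worth a level of 0.0489 to 0.109 in the 13 libraries and of 0.359 to 12.9 in the 3. The 44 genes together held 8969 to 68188 reads per library, and 2 of their 572 values in the 13 libraries were 0. Of 8 lymphatic endothelial markers 7 were in the table, led by Mmrn1, Lyve1 and Flt4 and none at 0. Their summed level was 2123 to 3082 in sham P1 and 1695 to 2679 in MI P1. In adults it was 1886 to 3229 in sham P56 and 1039 to 2474 in MI P56. The 12 fibroblast markers described below summed to 3228 and 6719 in sham P1 and 1869 to 5541 in MI P1. In adults they summed to 883 to 4117 in sham P56 and 3815 to 8159 in MI P56. The lists differ in size, so these sums are not shares of cells. Differences are on the log2(level + 1) scale, which understates the change of low genes, and a gene is called at a Benjamini-Hochberg adjusted p under 0.05 over the 13033 genes tested by limma. The labels do not say whether libraries of 1 group come from separate pools (neonates) or separate animals (adults). The p-values therefore measure the spread between these libraries, which may be technical.

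Cell cycle transcripts were abundant in both neonatal groups, low in sham adults and higher in adults after MI. Mki67, which encodes the proliferation antigen Ki-67 that coats mitotic chromosomes (chromosome 7, 135689784 to 135716361 in GRCm38), was at 291 and 332 in sham neonates, at 209.8, 291, 262 and 246 in MI neonates, at 36.9, 57.4, 18.4 and 15.2 in sham adults and at 119, 81.3 and 205 in MI adults. Its MI P56 libraries all lay above its sham P56 libraries and below every neonatal library, with MI P56 library 3 just under MI P1 library 1. Top2a, the topoisomerase that untangles replicated chromosomes (chromosome 11, 98992943 to 99024189), was at 109.6 and 113 in sham neonates, at 97.7, 93.3, 81.4 and 109 in MI neonates, at 9.64, 9.701, 8.41 and 2.45 in sham adults and at 26.8, 25.7 and 66.1 in MI adults. The groups were ordered in the same way, with MI P56 library 3 again the closest to the neonatal range. As means over all 44 genes, the summed level was 1273 ± 116 in sham neonates (SD, n = 2), 1089.8 ± 84.7 in MI neonates (n = 4), 214 ± 63.03 in sham adults (n = 4) and 632 ± 232 in MI adults (n = 3). As a share of the reads outside the mitochondrial ribosomal RNAs and Uqcrc1, the 44 genes took 0.439% to 0.557% in the neonatal libraries, 0.0760% to 0.101% in sham P56 and 0.195% to 0.422% in MI P56. In bulk libraries, fewer cycling cells, less of these RNAs per cell and a different share of other cell types, whose markers are given below, cannot be told apart.

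**Figure D1:**
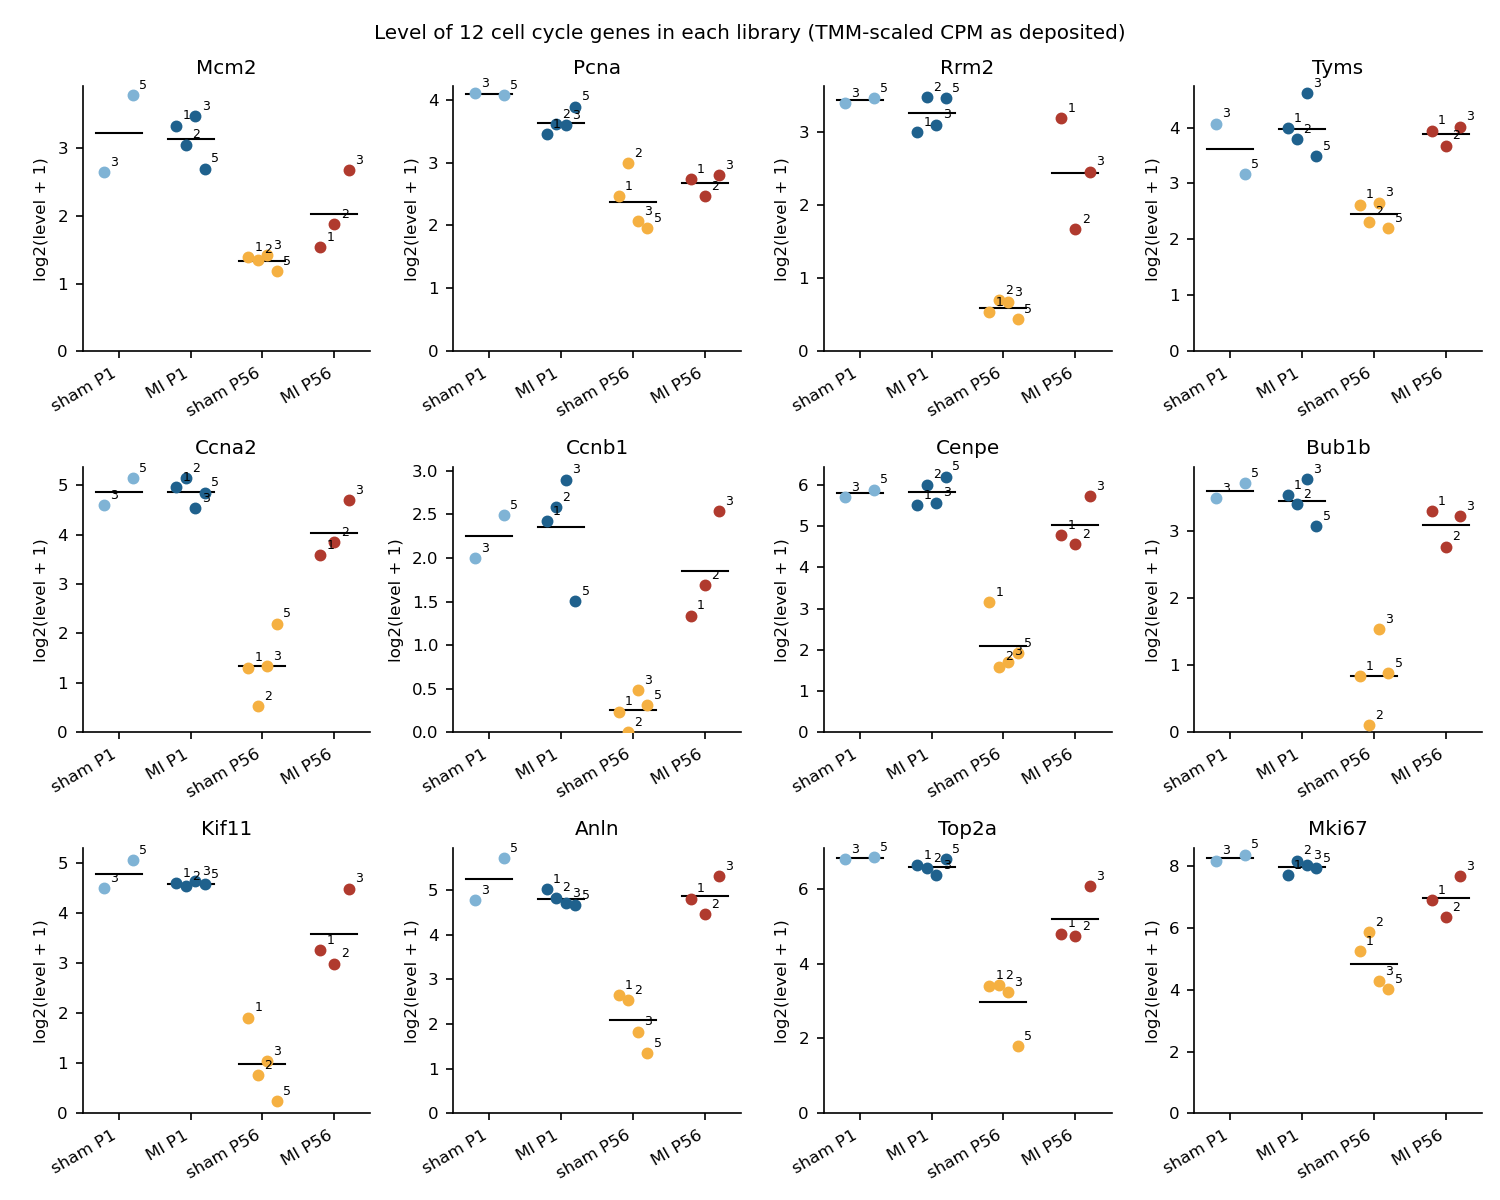
Level of 12 cell cycle genes on the log2(level + 1) scale in each of the 13 libraries, with points numbered by library, groups on the horizontal axis and bars at the group means of the plotted values. In each gene shown except Pcna every MI P56 point lies above every sham P56 point.

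Per kilobase of exon, Mki67 was the most abundant of the 44 genes in sham P1 (a level of 31.0 per kb) and in MI P1 (25.1), followed in both by the condensin subunit gene Smc4 (22.6 and 21.5) and by Top2a (12.4 and 10.6). In sham P56 Smc4 came before the others at 11.7 per kb, Mki67 followed at 3.18 and the helicase gene Mcm6 was next at 2.04. In MI P56 Smc4 (15.6) and Mki67 (13.4) were again followed by Top2a (4.39), then by the cyclin gene Ccna2 (4.02) and the kinetochore motor gene Cenpe (3.90). Before division by length the levels of Smc4 and Mki67 there were in the reverse order, at 81.4 ± 20.5 (SD, n = 3) and 135 ± 63.4. The order per kilobase of these genes, and of Top2a, Ccna2 and Cenpe among themselves, was not tested. Mitotic regulators sat at the bottom of the order in sham P56, where Ccnb1 was at 0.0483 per kb and Bub1 at 0.0692.

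Setting MI against sham adults asks how the cells responded to infarction in the adult heart, which scars. Of the 44 genes 22 rose and none fell, against 3.42% of the 13033 genes tested that were called in either direction, 2.36% higher and 1.07% lower. The difference was positive for all 44, with a median of 1.30 against 0.01 over all genes tested. In 24 of the 44 every MI library lay above every sham library, a count that was not made over all genes. The calls were unevenly spread over the roles, with 20 of 29 mitotic genes called (median difference 1.97) and 2 of 15 replication and repair genes (median 0.57). On the scale of group means, MI P56 was 3.92-fold above sham P56 at the median of the 44 genes, 5.91-fold for the mitotic genes and 1.67-fold for the replication and repair genes. The extremes were Rrm1 at 1.16-fold and Bub1 at 15.04-fold.

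None of the 6 genes of the MCM helicase, the motor that unwinds DNA ahead of the fork, passed the test at P56, and their differences ran from 0.40 to 0.83. Mcm2 was at 1.61, 1.55, 1.66 and 1.28 in sham adults and at 1.901, 2.67 and 5.39 in MI adults. MI P56 lay above sham P56 in every library of Mcm2, with a difference of 0.70 ± 0.36 (SE, limma adjusted p = 0.34). Mcm5 was at 0.493, 1.16, 1.37 and 0.5103 in sham adults and at 2.02, 1.66 and 3.44 in MI adults, and its difference of 0.83 ± 0.33 (SE, limma adjusted p = 0.18) had the smallest p of the 6. Library values of Mcm4 were 4.33, 6.62, 2.46 and 4.01 in sham P56 and 7.23, 3.02 and 10.9 in MI P56, so its groups overlapped. In the other 3 helicase genes (Mcm3, Mcm6 and Mcm7) the groups overlapped too.

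At the replication fork, all 7 differences were positive, and the 2 genes called higher both supply deoxynucleotides. Rrm2, the subunit of ribonucleotide reductase whose amount follows the cell cycle (chromosome 12, 24708241 to 24714146), was at 0.448, 0.621, 0.597 and 0.357 in sham adults and at 8.17, 2.199 and 4.51 in MI adults. The lowest MI library was above the highest sham library, and the difference was 1.86 ± 0.35 (SE, limma adjusted p = 0.0041), or 9.81-fold between the group means. Tyms, thymidylate synthase (chromosome 5, 30058202 to 30073617), was at 5.15, 3.98, 5.32 and 3.61 in sham adults and at 14.4, 11.8 and 15.2 in MI adults. These groups did not overlap either, with a difference of 1.43 ± 0.30 (SE, limma adjusted p = 0.011). The partner subunit Rrm1, which is more stable through the cycle, was at 9.86, 15.6, 12.4 and 9.97 in sham adults and at 12.1, 13.3 and 16.04 in MI adults, with a difference of 0.21 ± 0.22 (SE, limma adjusted p = 0.69) and overlapping groups. Pcna, the sliding clamp, was at 4.55, 6.96, 3.202 and 2.87 in sham adults and at 5.68, 4.53 and 5.94 in MI adults. Sham P56 library 2 exceeded all MI libraries for Pcna, and the difference was 0.30 ± 0.29 (SE, limma adjusted p = 0.65). Pola1, the catalytic subunit of the polymerase that starts new strands, was at 2.71, 3.21, 4.09 and 5.29 in sham adults and at 6.29, 5.39 and 10.6 in MI adults, with no overlap and a difference of 0.78 ± 0.29 (SE, limma adjusted p = 0.16). Neither the primase gene Prim1 (0.57 ± 0.31 SE) nor the clamp loader gene Rfc3 (0.27 ± 0.33) was called.

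Brca1 and Brca2, which act in repair by homologous recombination, were not called and each had 1 adult sham library far above the others. Brca1 was at 0.291, 7.71, 0.705 and 0.238 in sham adults and at 5.49, 1.01 and 6.81 in MI adults, and Brca2 was at 3.43, 11.4, 2.71 and 2.62 in sham adults and at 7.64, 6.17 and 7.15 in MI adults. In both, sham P56 library 2 exceeded all MI P56 libraries. The differences were 1.08 ± 0.56 (SE, limma adjusted p = 0.34) for Brca1 and 0.61 ± 0.37 (SE, limma adjusted p = 0.43) for Brca2.

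Among the cyclins and mitotic kinases, both cyclin genes were called higher and none of the 5 kinase genes was. All 7 differences were positive, each with an unadjusted limma p under 0.05, so the calls do not separate cyclins from kinases. The smallest ratio of group means was 2.45-fold, for Cdk1. Ccna2, cyclin A2, which drives S phase and entry into mitosis (chromosome 3, 36564865 to 36572150), was at 1.48, 0.4398, 1.52 and 3.59 in sham adults and at 10.97, 13.4 and 24.9 in MI adults. The lowest MI library was above the highest sham library, with a difference of 2.70 ± 0.35 (SE, limma adjusted p = 2.4e-04). Ccnb1, cyclin B1, the partner of the mitotic kinase CDK1 (chromosome 13, 100778650 to 100786570), was at 0.179, 0, 0.398 and 0.238 in sham adults and at 1.53, 2.22 and 4.804 in MI adults. These groups did not overlap, and the difference was 1.60 ± 0.38 (SE, limma adjusted p = 0.023). Cdk1 itself was at 0.247, 3.75, 0.8502 and 0.221 in sham adults and at 3.55, 1.42 and 4.33 in MI adults, with sham P56 library 2 within the MI range and a difference of 1.02 ± 0.45 (SE, limma adjusted p = 0.24). The kinases of centrosome and chromosomal passenger, Aurka (1.27 ± 0.38, adjusted p = 0.067 by limma) and Aurkb (1.34 ± 0.37, adjusted p = 0.054), were not called. Plk1, which acts at several steps of mitosis, and Ttk, a checkpoint kinase, had differences of 1.04 ± 0.38 and 1.27 ± 0.47 and were not called.

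All 4 genes of the kinetochore and its checkpoint rose. Cenpe, the motor that carries chromosomes to the spindle equator (chromosome 3, 135212537 to 135273611), was at 7.87, 2.02, 2.28 and 2.77 in sham adults and at 26.4, 22.7 and 51.9 in MI adults. The lowest MI value was above the highest sham value, that of sham library 1, and the difference was 2.93 ± 0.35 (SE, limma adjusted p = 8.3e-05), the largest of the 44. Bub1b, which encodes the checkpoint protein BubR1 (chromosome 2, 118598211 to 118641591), was at 0.784, 0.0776, 1.899 and 0.851 in sham adults and at 8.88, 5.84 and 8.35 in MI adults. The groups did not overlap, with a difference of 2.26 ± 0.34 (SE, limma adjusted p = 8.7e-04). Cenpf, a kinetochore protein that accumulates before mitosis, was at 12.4, 7.79, 6.42 and 4.44 in sham adults and at 18.3, 14.5 and 45.8 in MI adults, with a difference of 1.54 ± 0.34 (SE, limma adjusted p = 0.014). Bub1, the checkpoint kinase, had a difference of 1.97 ± 0.38 (SE, limma adjusted p = 0.0053). Its 15.04-fold ratio of means rests on a sham mean of 0.301.

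All 7 spindle genes rose, by 1.74 to 2.59. Kif11, the motor that pushes the spindle poles apart (chromosome 19, 37376403 to 37421859), was at 2.76, 0.698, 1.07 and 0.187 in sham adults and at 8.58, 6.92 and 21.4 in MI adults. Kif15, a motor with an overlapping role (chromosome 9, 122951046 to 123018733), was at 3.003, 1.97, 0.651 and 0.646 in sham adults and at 10.95, 8.21 and 19.8 in MI adults. In both genes the MI libraries lay above the sham libraries, library 3 highest, with differences of 2.59 ± 0.38 (SE, limma adjusted p = 6.7e-04) for Kif11 and 2.47 ± 0.34 (SE, limma adjusted p = 3.8e-04) for Kif15. Nusap1, which bundles spindle microtubules, was at 2.47, 1.99, 0.742 and 0.714 in sham adults and at 6.94, 4.81 and 9.56 in MI adults, with a difference of 1.74 ± 0.33 (SE, limma adjusted p = 0.0051). The spindle assembly factor gene Tpx2, the chromosome-bound motor gene Kif4, the spindle pole gene Aspm and the hyaluronan-mediated motility receptor gene Hmmr made up the rest. Hmmr was the spindle gene whose groups overlapped, with sham P56 library 2 at 5.28 and MI P56 library 2 at 4.44.

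Of 5 genes of the central spindle and cytokinesis 4 rose. Anln, which encodes the contractile ring scaffold anillin (chromosome 9, 22332012 to 22389188), was at 5.27, 4.76, 2.55 and 1.55 in sham adults and at 26.98, 21.00 and 38.4 in MI adults. Its groups were far apart, with a difference of 2.77 ± 0.32 (SE, limma adjusted p = 8.3e-05). Kif20b, a motor needed for completing cytokinesis (chromosome 19, 34922358 to 34975731), was at 2.398, 1.42, 2.17 and 1.04 in sham adults and at 11.1, 7.42 and 13.1 in MI adults. The difference was 2.06 ± 0.29 (SE, limma adjusted p = 5.8e-04). Kif23, the motor subunit of centralspindlin, was at 2.22, 0.181, 0.669 and 0.697 in sham adults and at 7.54, 6.27 and 13.8 in MI adults, with a difference of 2.42 ± 0.35 (SE, limma adjusted p = 5.8e-04). Ect2, the exchange factor that positions the ring, rose by 1.47 ± 0.38 (SE, limma adjusted p = 0.039). Prc1, which crosslinks the microtubules of the midzone, was at 3.18, 8.69, 0.778 and 1.53 in sham adults and at 5.25, 3.601 and 8.76 in MI adults. Sham P56 library 2 was just below the highest MI library for Prc1, and the gene was not called (0.83 ± 0.45 SE, limma adjusted p = 0.36).

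Among the genes of chromosome structure and proliferation, Top2a, Mki67 and the condensin gene Smc2 rose. The differences were 2.24 ± 0.36 (SE, limma adjusted p = 0.0014) for Top2a, 2.13 ± 0.36 (SE, limma adjusted p = 0.0021) for Mki67 and 1.23 ± 0.31 (SE, limma adjusted p = 0.035) for Smc2. The groups of Top2a and Mki67 did not overlap, whereas Smc2 in sham library 1 (11.5) was above MI library 2 (10.3). The other condensin genes, Smc4 (0.40 ± 0.24), Ncapg (0.76 ± 0.40) and Ncapd2 (0.80 ± 0.40), were not called. Smc4, the most abundant per kilobase in adults, was at 52.8, 80.1, 60.9 and 50.8 in sham adults and at 104, 62.9 and 77.7 in MI adults, with overlapping groups.

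**Figure D2:**
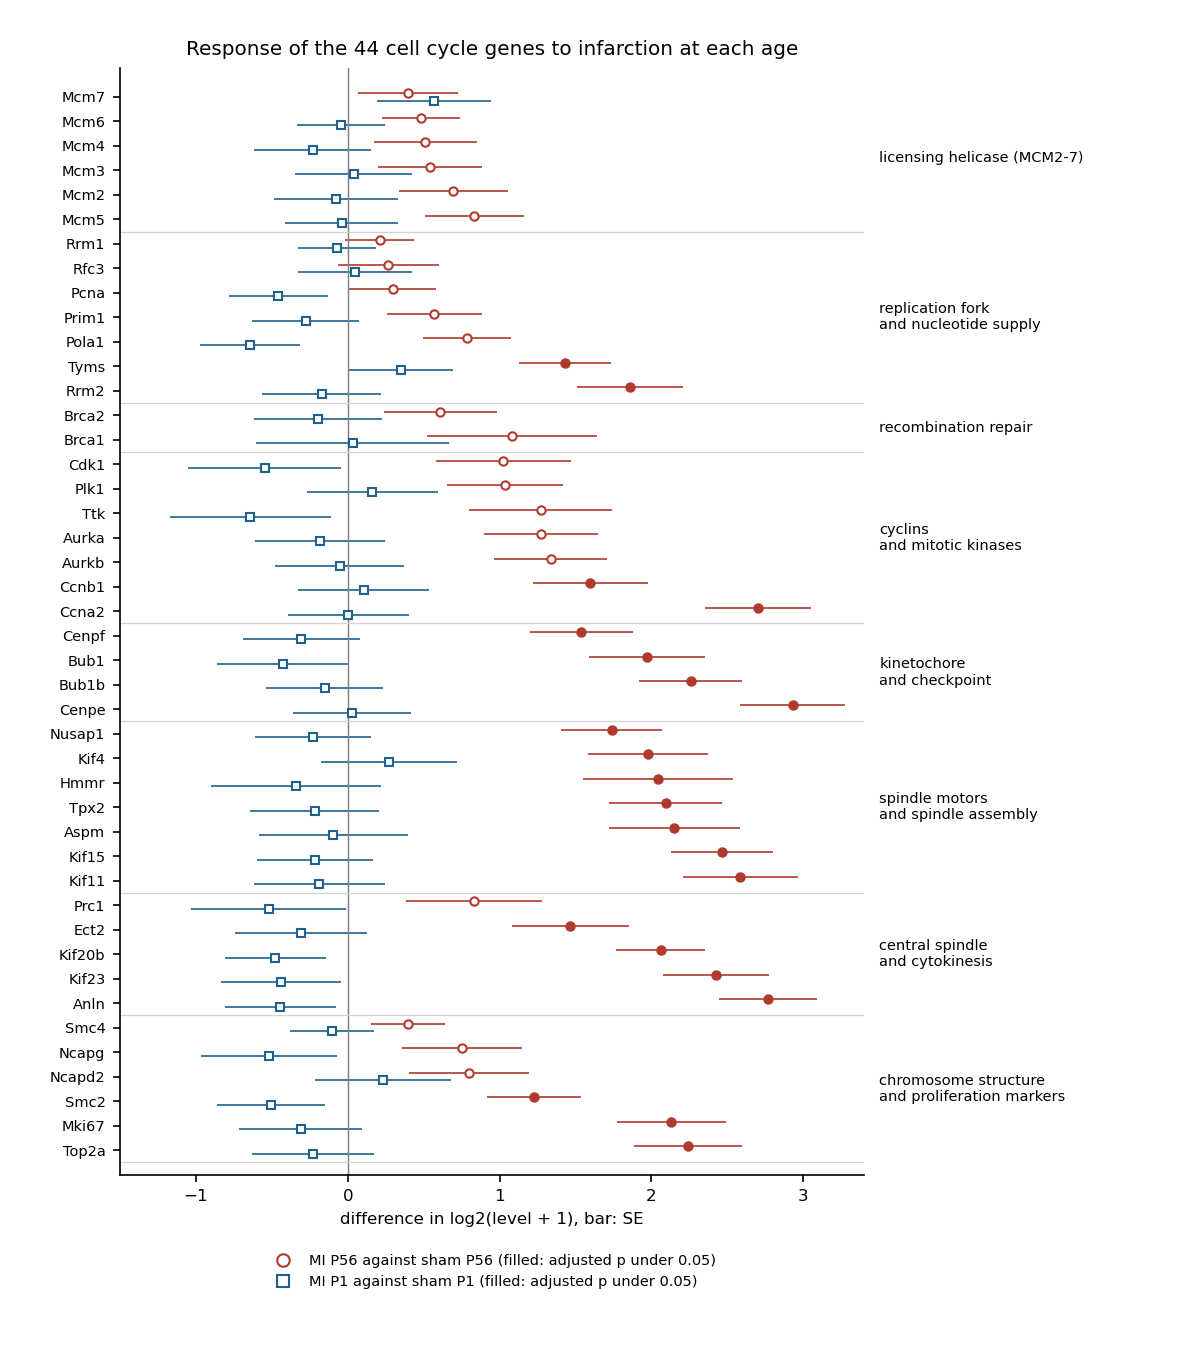
Difference of MI from sham in log2(level + 1) for each of the 44 genes at P56 (circles) and at P1 (squares), with bars of 1 SE, grouped by role and filled where the adjusted p was under 0.05. All 44 circles lie right of zero and 22 are filled, while the squares lie between -0.64 and 0.57 and none is filled.

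MI P56 library 3 held the highest of the 3 MI values for 37 of the 44 genes, and library 2 the lowest for 31. Without MI P56 library 3, 12 genes were called in place of 22, and leaving out any other library gave 19 to 27. The 12 genes Mki67, Top2a, Cenpe, Anln, Ccna2, Kif11, Kif15, Tpx2, Kif23, Kif20b, Bub1b and Rrm2 were called whichever 1 of the 13 libraries was left out, and the other 10 lost their calls without MI P56 library 3. Sham P56 library 2, which had the fewest genes with a read of the 13 libraries, was above at least 1 MI library in, among others, Pcna, Brca1, Brca2, Cdk1, Hmmr and Prc1, and 27 genes were called without it. With all 16 libraries the fit called 1 of the 44, Kif15 (limma adjusted p = 0.0207), against 0.174% of 13243 genes called, 0.143% higher and 0.0302% lower, with a median difference of 1.13 and 40 of the 44 differences positive.

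After infarction at P1, an age at which the heart can regenerate, none of the 44 genes was called in either direction, and none of the 13033 genes tested was (0% called). The median difference was -0.19 against 0.02 over all genes, with 11 genes positive and 33 negative, and none of the 44 had an unadjusted p under 0.05 (485 of all genes did). Group means of MI P1 were 0.871-fold those of sham P1 at the median, between 0.599-fold for Ttk and 1.63-fold for Mcm7. Mcm7 was at 3.63 and 4.09 in sham neonates and at 4.83, 7.91, 7.18 and 5.31 in MI neonates, the single gene of the 44 with every MI library above both sham libraries. Pola1 was at 21.1 and 22.97 in sham neonates and at 12.6, 12.01, 12.4 and 18.8 in MI neonates, 1 of 10 genes with every MI library below both sham libraries. Pcna was at 16.3 and 15.8 in sham neonates and at 9.91, 11.2, 11.1 and 13.8 in MI neonates, also with the groups apart, and its difference was -0.46 ± 0.33 (SE, limma adjusted p = 1). How many of all genes had their groups apart in either direction was not counted. The sham group had 2 libraries, which limits the precision of these differences, and a gene not called is not shown to be unchanged. With all 16 libraries 30 of the 44 differences changed sign and the median turned positive, at 0.53, while the median of all genes moved to 0.39, and none was called.

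The response at P56 exceeded the response at P1 for 10 of the 44 genes, against 0.483% of all genes tested called in either direction, 0.322% higher and 0.161% lower. These were Anln, Cenpe, Kif23, Kif11, Ccna2, Kif15, Kif20b, Top2a, Mki67 and Bub1b, all mitotic. The difference of responses was 3.21 ± 0.49 (SE, limma adjusted p = 0.0057) for Anln and 2.90 ± 0.52 (SE, limma adjusted p = 0.02) for Cenpe. For Mki67 it was 2.44 ± 0.54 (SE, limma adjusted p = 0.049) and for Top2a 2.47 ± 0.54 (SE, limma adjusted p = 0.047), both close to the threshold. Over the 44 genes the median was 1.53 against -0.01 over all genes, and 43 were positive, the exception being Mcm7 at -0.17. Rrm2, the gene of nucleotide supply with the largest adult response, was at 2.03 ± 0.52 (SE, limma adjusted p = 0.097). The count depended on single libraries. Of the 2 sham P1 libraries, library 5 had 47.3% of its reads on Uqcrc1 (library 3 had 0.232%), the fewest reads of the 13 libraries outside Uqcrc1 and the mitochondrial ribosomal RNAs (6709566) and the higher value for 34 of the 44 genes. The count was 0 without sham P1 library 5, 1 without sham P1 library 3, MI P1 library 1, MI P1 library 3 or MI P56 library 3, and 5 or 6 without MI P1 library 5, MI P1 library 2, sham P56 library 5 or MI P56 library 1. It was 17 without sham P56 library 2, and no gene was called in all 13 of these fits. With all 16 libraries it was 0, against 0.00755% of all genes.

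Between sham P1 and sham P56, the comparison of hearts without infarct at the 2 ages, 41 of the 44 genes fell and none rose, against 13.2% of all genes called, 7.28% lower and 5.89% higher. The median difference was -2.44 against 0.00 over all genes. In 43 genes both sham P1 libraries lay above all 4 sham P56 libraries, Mcm7 being the exception, and this count was not made over all genes. The genes not called were Mcm7, Aurka and Plk1, and of these Aurka was at 1.498 and 2.500 in sham P1 and 0.471, 0.207, 0.326 and 0.5103 in sham P56. Sham P1 means were 7.59-fold those of sham P56 at the median, 11.3-fold for the mitotic and 3.65-fold for the replication and repair genes. This ratio ran from 1.22-fold for Mcm7 to 35.7-fold for Bub1.

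Of the helicase genes 5 of 6 fell with age in sham, the differences running from -2.24 for Mcm5 to -0.28 for Mcm7, which was not called. Neonatal levels of Mcm5 were 8.18 and 7.28 in sham P1 and 6.46, 9.798, 7.83 and 6.26 in MI P1. Mcm4 was at 19.6 and 18.5 in sham neonates and at 14.6, 18.5, 17.05 and 14.4 in MI neonates, and Mcm2 was at 5.25 and 12.8 in sham neonates and at 9.06, 7.28, 10.1 and 5.47 in MI neonates. For Mcm5 and Mcm4 every neonatal value was above every adult value, whereas Mcm2 in sham P1 library 3 was below MI P56 library 3. All 7 genes of the fork and nucleotide supply fell, among them Rrm2 (at 9.58 and 10.1 in sham neonates and at 7.03, 10.2, 7.602 and 10.04 in MI neonates, difference -2.85 ± 0.39). Pola1 fell by a difference of -2.28 ± 0.33 (SE, limma adjusted p = 1.3e-04). Tyms, at 15.8 and 8.01 in sham neonates and at 14.9, 12.8, 23.6 and 10.2 in MI neonates, had the smallest fall of the fork genes at -1.17 ± 0.34 (SE, limma adjusted p = 0.029). Brca1 (at 8.46 and 9.67 in sham neonates and at 7.76, 12.2, 8.37 and 9.31 in MI neonates) and Brca2 (at 13.5 and 11.6 in sham neonates and at 7.08, 12.9, 11.04 and 13.4 in MI neonates) fell too, with adjusted p of 0.028 and 0.037 by limma.

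Of the cyclins and kinases 5 of 7 fell with age in sham. Ccna2 was at 23.2 and 34.2 in sham neonates and at 30.1, 34.2, 22.3 and 27.8 in MI neonates, and its difference was -3.52 ± 0.40 (SE, limma adjusted p = 1.3e-05). Aurkb, the kinase of the chromosomal passenger complex, was at 4.58 and 7.54 in sham neonates, at 6.48, 6.86, 4.86 and 4.69 in MI neonates, at 1.300, 0.0517, 0.217 and 0.05103 in sham adults and at 1.195, 2.57 and 3.79 in MI adults, with a difference of -2.38 ± 0.42 (SE, limma adjusted p = 8.3e-04). Both neonatal groups of Aurkb lay above all 4 sham adults, and the lowest MI adult was within the sham adult range. All kinetochore, spindle, cytokinesis and chromosome genes fell. Cenpe was at 50.9 and 58.1 in sham neonates and at 44.2, 63.3, 46.4 and 72.5 in MI neonates, with a difference of -3.70 ± 0.39 (SE, limma adjusted p = 7.7e-06), and Cenpf was at 60.3 and 59.05 in sham neonates and at 35.4, 48.4, 55.2 and 56.8 in MI neonates, with -2.87 ± 0.38 (SE, limma adjusted p = 6.4e-05). Kif11 was at 21.5 and 32.3 in sham neonates and at 23.3, 22.2, 23.7 and 22.9 in MI neonates, which gave -3.78 ± 0.43 (SE, limma adjusted p = 1.3e-05), and Kif15 was at 24.4 and 24.6 in sham neonates and at 19.9, 21.96, 20.1 and 21.97 in MI neonates, which gave -3.42 ± 0.38 (SE, limma adjusted p = 1.3e-05). Both motors were higher in every neonatal than in every adult library, with MI P56 library 3 close to the lowest neonatal value. Kif23 was at 18.7 and 29.3 in sham neonates and at 19.7, 15.6, 19.6 and 13.97 in MI neonates (-3.76 ± 0.40 SE, limma adjusted p = 7.7e-06) and Kif20b was at 19.9 and 20.9 in sham neonates and at 11.2, 16.4, 12.2 and 18.8 in MI neonates (-2.98 ± 0.33 SE, limma adjusted p = 1.3e-05). The largest difference of the 44 was that of Top2a, -3.85 ± 0.40 (SE, limma adjusted p = 7.7e-06), followed by Kif11 and Kif23. Leaving out sham P1 library 5 gave 27 calls and leaving out any other library 31 to 41, and with all 16 libraries 12 genes fell, against 3.91% of all genes called, 1.39% lower and 2.52% higher.

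Between the ages after infarction, 5 of the 44 genes were lower in MI P56 than in MI P1, against 5.35% of all genes called, 3.26% lower and 2.09% higher, and none was higher. They were Rrm1 (-1.05 ± 0.22 SE, limma adjusted p = 0.0087), Mcm5 (-1.37 ± 0.33 SE, limma adjusted p = 0.018), Top2a (-1.38 ± 0.36 SE, limma adjusted p = 0.027), Nusap1 (-1.27 ± 0.33 SE, limma adjusted p = 0.031) and Mcm4 (-1.22 ± 0.34 SE, limma adjusted p = 0.04). Rrm1 was at 29.6 and 32.7 in sham neonates and at 33.2, 31.1, 26.7 and 27.7 in MI neonates, against 12.1, 13.3 and 16.04 in MI P56, with the groups well apart. Nusap1 was at 16.3 and 27.4 in sham neonates and at 16.2, 17.5, 24.4 and 14.8 in MI neonates. The median difference of the 44 was -0.82 against 0.01 over all genes, and 42 were negative. Aurka (0.35 ± 0.38) and Anln (0.05 ± 0.32) were the positive ones, not called. MI P56 means stood at 57.2% of the MI P1 means at the median, from 27.7% for Rfc3 to 125% for Aurka, whereas sham P56 means stood at 13.2% of sham P1 means, from 2.80% for Bub1 to 81.9% for Mcm7. The comparison of MI P56 with sham P56 shares its MI libraries with the one of MI P56 with MI P1, so their values are not independent. The 5 calls were not stable, with 1 to 14 when 1 library was left out (14 without sham P56 library 2, 10 without MI P56 library 3, and 1 to 3 without any single MI P1 library, MI P56 library 1 or MI P56 library 2). Rrm1 alone was called whichever library was left out, and with all 16 libraries none of the 44 was, against 0.106% of all genes called, 0.0529% in each direction.

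**Figure D3:**
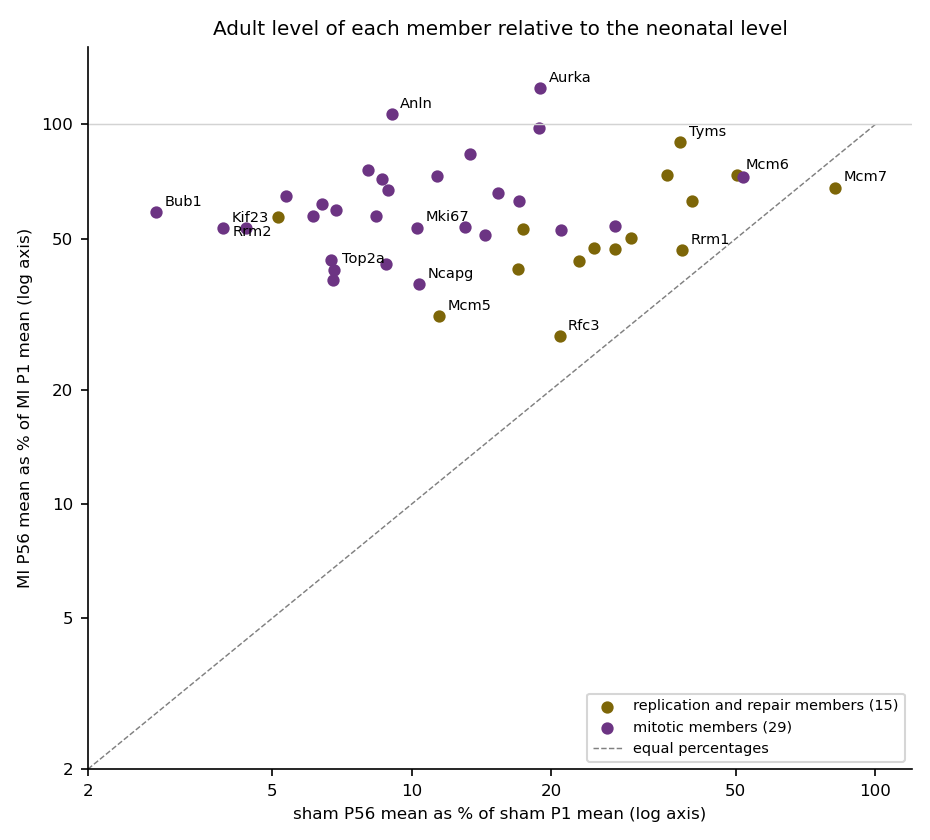
Mean level in sham P56 as a percentage of that in sham P1 (horizontal) against mean level in MI P56 as a percentage of that in MI P1 (vertical), both on log axes, 1 point per gene. Mitotic genes lie at 2.80% to 51.9% on the horizontal axis and 37.9% to 125% on the vertical axis, and all genes but Mcm7 lie above the line of equal percentages.

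Replication and mitotic transcripts did not keep one ratio across the groups. The summed level of the 29 mitotic genes was 1002 and 1159 in sham P1, 819 to 983 in MI P1, 178, 216, 125 and 103 in sham P56 and 477, 350 and 773 in MI P56 (libraries 1, 2 and 3). That of the 15 replication and repair genes was 189 and 196 in sham P1, 163 to 187 in MI P1, 48.4, 81.1, 54.9 and 49.3 in sham P56 and 98.8, 82.8 and 113 in MI P56. Both sums were higher in every MI adult library than in every sham adult library, by a small margin for replication. The mitotic sum divided by the replication sum was 5.31 and 5.91 in sham P1, 4.85 to 5.58 in MI P1, 3.67, 2.66, 2.27 and 2.09 in sham P56 and 4.83, 4.22 and 6.82 in MI P56. All sham adults had lower ratios than all other libraries, and among the MI adults libraries 1 and 2 were below and library 3 above the neonatal range. Without Mki67, the ratio was 1.79 to 2.91 in sham P56 and 3.24 to 5.01 in MI P56. In sham P56 Smc4 was a larger part of the mitotic sum than Mki67, and the ratio without Smc4 was not computed.

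Levels of other cell types' markers also differed between the adult groups, and their part in the results was not tested. Of 15 leukocyte markers 11 were in the table and 9 passed the filter, and 3 rose at P56 (Itgam, Cd68 and Laptm5), the called markers being named here after their values were seen. The summed leukocyte level, led by Lyz2, Cd68 and Cd3e, was 27.2 and 28.9 in sham P1, 19.2 to 49.6 in MI P1, 7.16 to 10.8 in sham P56 and 19.4, 97.7 and 76.2 in MI P56 libraries 1, 2 and 3. Cd3e, a T cell gene, had no read in any of the 4 sham P56 libraries. The mitotic sums of the same 3 MI libraries were 477, 350 and 773. Of 12 fibroblast markers, all in the table, 5 rose at P56 (Col1a1, Col1a2, Col3a1, Mfap5 and Postn) and 0 fell. Of the 12 differences 10 were positive and 2 negative, the lowest at -1.30, so the list did not move as one. The summed fibroblast level, led by Col3a1, Col1a1 and Col1a2, was 3228 and 6719 in sham P1, 1869 to 5541 in MI P1, 883 to 4117 in sham P56 and 3815, 6427 and 8159 in MI P56. MI P56 library 3 had the highest of all 13 fibroblast sums and the highest mitotic sum of the adults. Sham P56 library 2 had the highest fibroblast sum and the highest mitotic sum (216) of the sham adults. Other libraries were not ordered alike. Sham P56 library 1 had the lowest fibroblast sum (883) and the second highest mitotic sum (178) of the sham adults. MI P56 library 2, with a fibroblast sum of 6427, had the lowest mitotic sum of the MI adults (350). The fit of all 16 libraries called 1 leukocyte and 3 fibroblast markers higher at P56.

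Markers of cardiomyocytes and blood endothelium, and part of those of pericytes and smooth muscle, were lower in MI than in sham adults. Of 11 cardiomyocyte markers in the table (of 12 listed) 10 fell, among them Ttn, Myh6 and Actc1, with a summed level of 1294 to 2340 in sham P56 and 326 to 574 in MI P56 against 103 to 350 in the neonates. Of 10 genes listed as blood endothelial markers 5 fell, among them Cdh5, Cd36 and Kdr. Whether the lymphatic cells also express these genes was not tested. The sum of the 10 was 791 to 1213 in sham P56, 327 to 593 in MI P56, 336 to 380 in sham P1 and 425 to 606 in MI P1. Of 7 pericyte and smooth muscle markers tested Acta2 rose and 2 fell (Rgs5 and Abcc9), the sum being 449 to 1152 in sham P56 and 208 to 335 in MI P56. Mesothelial markers (6 tested) showed no call, and of 3 erythroid markers tested Hbb-bs rose. None of the 7 lymphatic markers was called in any direction at P56, though all 7 had negative differences (median -0.46). MI P56 library 3, with the highest mitotic sum of the adults, had the lowest lymphatic sum (1039). MI P56 library 2, with the lowest mitotic sum of the MI adults, had a lymphatic sum of 1637, and library 1 had 2474. In the fit of all 16 libraries 1 cardiomyocyte marker fell, and no blood endothelial, pericyte or erythroid marker was called.

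**Figure D4:**
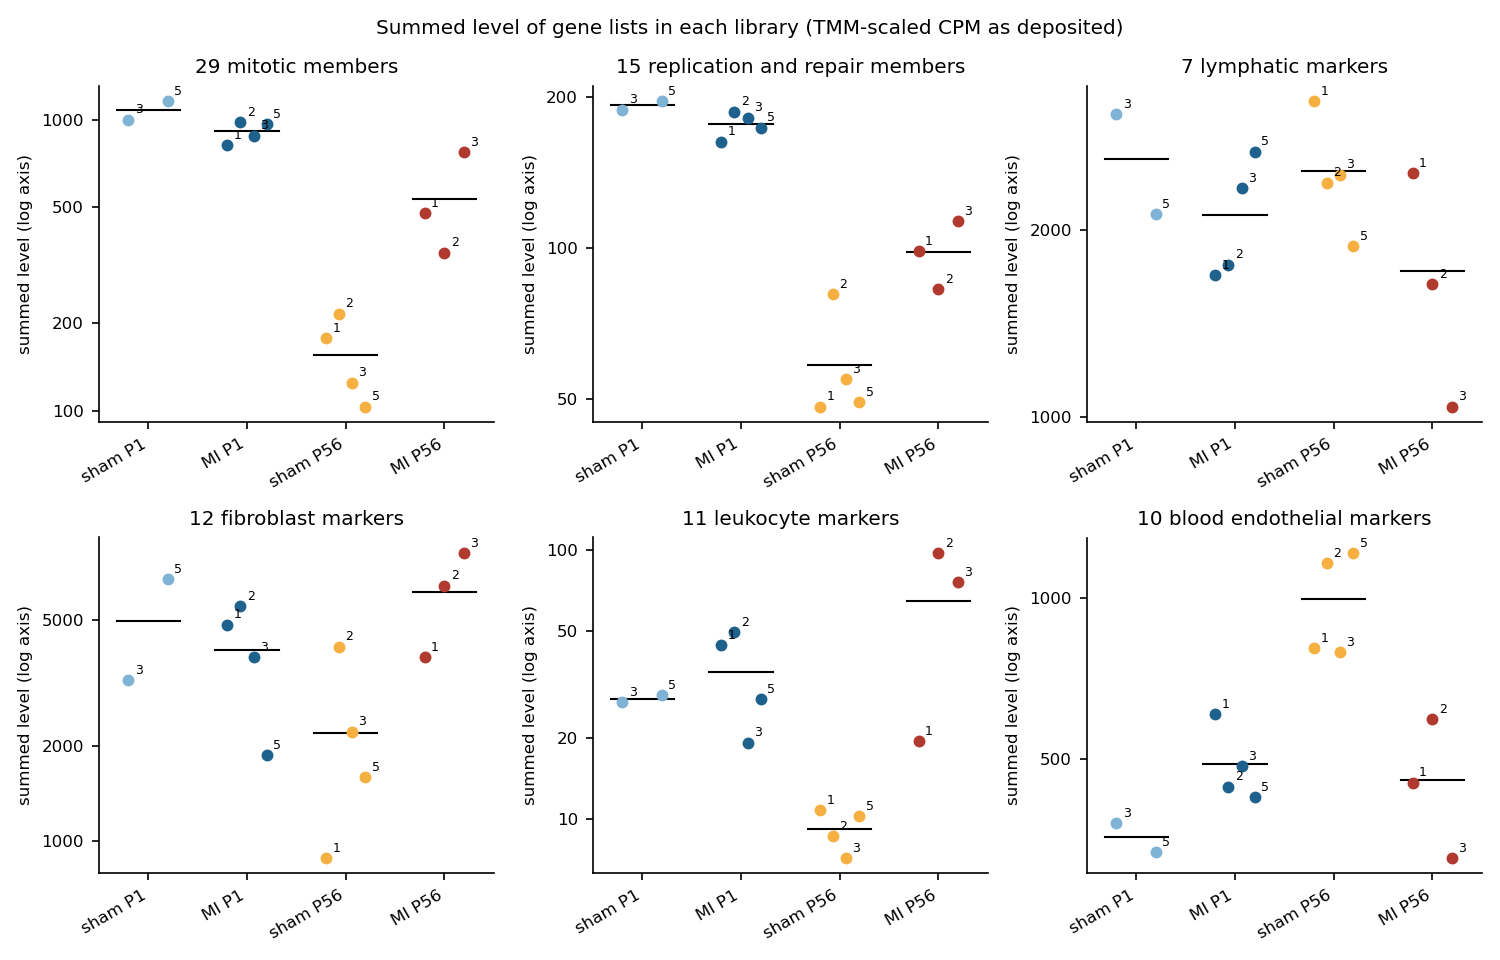
Summed level, on log axes, of the mitotic and the replication and repair genes and of marker lists of 4 cell types in each of the 13 libraries, numbered by library, with bars at group means. Mitotic sums of 350 to 773 in MI P56 lie above the 103 to 216 of sham P56, and fibroblast and leukocyte sums are also highest in MI P56 on average.

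Other genes of the cell cycle gave the setting for these changes. Of 122 such genes 117 were in the table and 114 were tested, and 18 rose and 1 fell at P56, against 2.36% higher and 1.07% lower among all genes, with a median difference of 0.49 against 0.01. With all 16 libraries 1 of them rose and none fell. Among 38 other mitotic genes tested 13 rose, led by Kif14, a cytokinesis motor (0.288 ± 0.351 in sham adults, n = 4, and 8.39 ± 3.62 in MI adults, n = 3, difference 2.82 ± 0.36 SE, limma adjusted p = 1.8e-04). Ube2c, a ubiquitin-conjugating enzyme of the anaphase-promoting complex, rose by 2.07 ± 0.36 (SE, limma adjusted p = 0.0028), and the kinetochore gene Nuf2 by 1.97 ± 0.35 (SE, limma adjusted p = 0.0033). Among 22 other fork genes Pole, the leading strand polymerase (1.73 ± 0.35 SE, limma adjusted p = 0.0083), and the ligase gene Lig1 (1.42 ± 0.39 SE, limma adjusted p = 0.0499) rose. Of 19 genes of origin licensing and firing Ticrr rose (2.09 ± 0.37 SE, limma adjusted p = 0.003).

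The transcription factors of the cycle moved in part. Of 20 E2F, pocket protein and MuvB genes, which govern cell cycle promoters, 2 rose at P56. Foxm1, an activator of mitotic genes, was at 1.95 ± 0.921 in sham adults (n = 4) and 10.4 ± 6.199 in MI adults (n = 3), with a difference of 1.87 ± 0.36 (SE, limma adjusted p = 0.0053). Tfdp1, the dimer partner of E2F proteins, went from 8.57 ± 2.12 to 18.1 ± 1.88 in the same groups (1.02 ± 0.23 SE, limma adjusted p = 0.019). D- and E-type cyclins and their kinases, which act in G1, were listed together with Cdk7 and Ccnh. This list had no gene higher among 9 tested and 1 lower. The lower gene was Ccnd2, at 60.8 ± 18.8 in sham P56 and 31.6 ± 0.473 in MI P56 (-0.87 ± 0.22 SE, limma adjusted p = 0.035). In sham hearts, 47 of the 114 other cell cycle genes were lower at P56 than at P1 and none was higher, against 7.28% lower and 5.89% higher among all genes, and 28 of the 47 were mitotic genes. The count lower was 9 with all 16 libraries.

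None of the 6 tested genes of inhibitors of cyclin-dependent kinases, which hold cells out of the cycle, was called at P56, against 3.42% of all genes, so that the count itself says nothing particular about them. Cdkn1a, which encodes p21, was at 16.3 ± 8.36 in sham adults (n = 4) and 20.6 ± 15.5 in MI adults (n = 3), and Cdkn1b, which encodes p27, at 17.3 ± 4.97 and 14.5 ± 3.07. Cdkn1c, which encodes p57, was at 3.29 ± 2.86 and 2.04 ± 1.63. It was lower in MI P56 than in MI P1 (8.56 ± 3.32, n = 4), with a difference of -1.76 ± 0.48 (SE, limma adjusted p = 0.035). Cdkn2c, Cdkn2d and Cdkn3, which is a phosphatase of CDKs, had means of 2.06, 0.494 and 0.1504 in sham P56 and of 2.59, 0.647 and 0.979 in MI P56. Cdkn2b was below the filter, with means of 0.251 and 0.939.

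Promoters of the 44 genes, whether called or not, were compared for motifs of cell cycle control, in RefSeq windows (GRCm38.p6) from 250 bases before to 50 after the transcription start. Windows were matched by symbol for 39 of the 44 genes, 25 mitotic and 14 of replication and repair, and 1 window or more per gene was searched on both strands. The CHR (cell cycle genes homology region, searched as TTTGAA) is the element through which MuvB complexes act, the CCAAT box (CCAAT) is bound by NF-Y, and E2F sites were searched in 5 forms. The longest forms were TTTCGCGC, which holds the shorter form TTCGCGC, and TTTGGCGC, which holds the shorter form TTGGCGC. The last form searched was TTCCCGC. The CHR letters were found in 21 of 25 mitotic genes (84%) and in 1 of 14 replication and repair genes (7.14%, Mcm2), against 20.2% of the 27025 genes with a window and 14.5% of those also in the deposited table. The E2F letters showed the opposite balance, in 32% of the mitotic and 71.4% of the replication and repair genes, against 9.2% of all and 16.5% of those in the table. CCAAT was found in 84% and 85.7%, against 41.1% of all. Windows with both CHR and CCAAT belonged to 72% of the mitotic genes, 7.14% of the others and 7.97% of all. The mitotic genes without the CHR letters in these windows were Nusap1, Bub1, Cenpe and Ccnb1, all 4 of which rose at P56. A match of letters is a description and not evidence of a bound site.

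The windows below show these letters in 7 genes, from 120 bases before to 30 after the start, in the direction of transcription, with matches within the printed bases in capitals. Top2a (chr11:99024160-99024309, minus strand) and Mki67 (chr7:135716350-135716499, minus strand) are shown as mitotic genes with CHR letters, Anln (chr9:22389177-22389326, minus strand) and Cenpe (chr3:135212443-135212592, plus strand) for their small p at P56. Rrm2 (chr12:24708134-24708283, plus strand) and Tyms (chr5:30073596-30073745, minus strand) are the replication genes that rose. Pola1 (chrX:93632126-93632275, minus strand) stands for E2F letters and was picked after the matches were seen. The capitals mark CHR and CCAAT letters in Top2a (TTCAAA is the CHR read on the reverse strand, and ATTGG is the CCAAT box read likewise), CHR and E2F letters in Mki67, CHR letters in Anln (TTCAAA, on the reverse strand), CCAAT in Cenpe and Rrm2 and CCAAT and E2F letters in Pola1, while Tyms has none.
Top2a: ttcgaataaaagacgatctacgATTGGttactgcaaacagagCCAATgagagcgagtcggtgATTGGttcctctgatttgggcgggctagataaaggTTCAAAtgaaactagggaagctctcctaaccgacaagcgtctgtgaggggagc
Mki67: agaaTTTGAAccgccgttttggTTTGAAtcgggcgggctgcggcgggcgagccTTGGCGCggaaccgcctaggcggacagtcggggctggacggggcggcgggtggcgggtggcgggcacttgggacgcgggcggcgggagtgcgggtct
Anln: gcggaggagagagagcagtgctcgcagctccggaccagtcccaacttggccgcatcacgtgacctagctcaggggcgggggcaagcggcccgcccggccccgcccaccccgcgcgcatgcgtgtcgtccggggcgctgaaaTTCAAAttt
Cenpe: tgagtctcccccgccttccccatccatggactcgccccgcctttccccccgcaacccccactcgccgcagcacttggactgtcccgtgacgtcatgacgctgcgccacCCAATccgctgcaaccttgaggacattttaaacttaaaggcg
Rrm2: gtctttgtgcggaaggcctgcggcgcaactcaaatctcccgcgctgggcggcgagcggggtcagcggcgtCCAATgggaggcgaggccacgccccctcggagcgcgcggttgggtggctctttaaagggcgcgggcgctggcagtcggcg
Tyms: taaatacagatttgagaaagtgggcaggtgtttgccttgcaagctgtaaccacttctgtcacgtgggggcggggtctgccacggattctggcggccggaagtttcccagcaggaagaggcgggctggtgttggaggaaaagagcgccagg
Pola1: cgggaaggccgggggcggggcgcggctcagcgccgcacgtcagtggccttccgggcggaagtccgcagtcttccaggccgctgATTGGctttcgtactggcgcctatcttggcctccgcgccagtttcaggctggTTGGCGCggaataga

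Some of these genes share exon sequence with a neighbour on the other strand, and whether reads were counted by strand is not given in the sources used here. In GENCODE M21 the shared part is 15.1% of the exon bases of Kif4 (with Pdzd11), 13.4% of Ncapg (with Lcorl), 12.5% of Ccna2 (with Exosc9) and 11.1% of Prc1 (with Rccd1). It is 7.25% for Mcm7 (with Ap4m1) and 4.24% for Nusap1 (with Oip5). Pcna, Tyms, Ccnb1 and Kif4 have annotated processed pseudogenes, to which similar reads could be assigned. Values of these genes are uncertain to that extent.

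In the 3 libraries left out, the 44 genes could not be read at the same precision. In sham P1 library 2 they held 93 reads, with no read on 16 genes and 1 to 3 reads on 24. In MI P56 library 5 they held 157 reads, with no read on 11 genes and 1 to 3 on 21, and 49 of the 157 lay on Mki67. In sham P1 library 1 they held 19680 reads, with more than 3 on 30 genes and none on 7. A gene with no read in these libraries can be at any level up to that of 3 reads, which is 0.359 and 12.1 in these sham P1 libraries (numbers 1 and 2) and 12.9 in MI P56 library 5, for counting error only. With all 16 libraries the median difference of all genes itself shifted, to -0.17 for MI against sham at P56, 0.39 for the same at P1, -0.50 for the difference of responses, 0.36 for sham P56 against sham P1 and -0.18 for MI P56 against MI P1. The medians of the 44 genes in these fits were 1.13, 0.53, 0.55, -1.47 and -0.92.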

How the data were processed

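RNA of sorted CD45-, CD31+ and podoplanin+ cells was amplified and sequenced as single reads, per the labels' protocols. The submitters' processing notes name Trimmomatic, STAR, HTSeq, edgeR and the builds mm10 and GRCm38, with no versions. The authors deposited a normalized signal, CPM values for 15895 genes in 16 libraries. Each value was a whole multiple of the worth of 1 read (100% of values within 0.01 of a whole read), so reads were recovered, and the scaling matched TMM factors computed from them to within 0.000299%. Libraries held 17103319 to 43837520 reads. Groups come from the labels or, for columns numbered 5, from the column's name, since no label carries that number.

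Values were tested as log2(level + 1) with limma-trend (limma 3.58.1, R 4.3.3) on 13 libraries with a read on at least 10000 genes, for the 13033 genes at 1 or more in at least 4 libraries, two-sided, with Benjamini-Hochberg adjustment and 1 spread shared by all groups. The fits were tested on simulated data. Alternatives were all 16 libraries, other filters and pseudocounts, rescaling, library weights, a replicate block, edgeR 4.0.16 and DESeq2 1.42.0 on the recovered reads, only the groups compared and each library left out. Exon lengths and overlaps came from GENCODE M21 (15871 genes matched by ID), and promoters from RefSeq, with Ccna2, Smc4, Mcm4, Aurkb and Tpx2 not matched.

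The 44 genes, the gene lists and the tests were chosen with earlier results of these data known. Values in every library are given for Mki67, Top2a, Pcna and Mcm2, for up to 2 genes per role with the smallest p among those called in a comparison, and for a few others after their values were seen. Of the other cell cycle lists, up to 3 genes per direction with the smallest p at P56 and every CDK inhibitor are named, and of the marker lists the 3 with the largest mean.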

Additional observations from a re-analysis of the deposited data

Results flagged for a closer look

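In 4 of the 88 groups of 4 libraries examined, 1 library stood far from the other 3 (gap over range of log2(level + 1) above Dixon's critical value), and chance gives about 1 in 20 such groups. Pola1 was at 18.8 in MI P1 library 5, against 12.0 to 12.6 in the others. Brca1 was at 7.71 in sham P56 library 2, against 0.238 to 0.705, and Brca2 at 11.4 in the same library, against 2.62 to 3.43. Top2a was at 2.45 in sham P56 library 5, against 8.41 to 9.70.

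The response to MI differed between the ages for 10 genes, by the limma test of the difference of responses over all genes. The response at P56 exceeded that at P1 by 3.21 for Anln (adjusted p = 0.0057), 2.90 for Cenpe (0.020), 2.86 for Kif23 (0.024), 2.77 for Kif11 (0.038) and 2.69 for Ccna2 (0.033), on the log2(level + 1) scale. It exceeded it by 2.68 for Kif15 (0.031), 2.54 for Kif20b (0.018), 2.47 for Top2a (0.047), 2.44 for Mki67 (0.049) and 2.41 for Bub1b (0.046). The sham P1 group behind these values had 2 libraries, and without sham P1 library 5 none of the 10 was called.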

How the results depend on the processing

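The count of the 44 genes called higher in MI than in sham at P56 was 18 to 28 under the alternatives other than 1 with all 16 libraries, 14 with only the groups compared and 12 to 27 with 1 library left out (12 without MI P56 library 3). The count for the difference of responses, 10, was 0 with all 16 libraries, 5 with a pseudocount of 4, 20 with library weights, 6 with edgeR and 17 with DESeq2, and 0 to 17 with 1 library left out. The 41 genes lower in sham P56 than in sham P1 became 12 with all 16 libraries and 27 to 41 with 1 left out. The 5 genes lower in MI P56 than in MI P1 became 0 with all 16 libraries, 3 with a pseudocount of 0.25, 8 with a pseudocount of 4, 13 with library weights, 1 with edgeR, 15 with only the groups compared and 1 to 14 with 1 left out. No alternative called a gene of the 44 between MI P1 and sham P1. The cause of these changes was not tested. Of the named genes' called results, 1 changed direction: Tfdp1 between sham P56 and sham P1 was at 0.0060 on the log2 scale with all 16 libraries. Among differences of the 44 genes that were not called, those that changed sign with all 16 libraries were 30 at P1, 4 at P56, 9 for the difference of responses and 3 for MI P56 against MI P1.

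With the replicate block the counts were 19 at P56, 0 at P1, 1 for the difference of responses, 37 for sham P56 against sham P1 and 3 for MI P56 against MI P1. Deviations of same-numbered libraries from their group means had correlations of -0.32 to 0.135 over 15 pairs, of which 1 was over 0.1. Over 47 pairs of different number they ran from -0.146 to 0.320, with 10 over 0.1. The sham P1 libraries deviate from their mean by equal and opposite amounts, so their correlations repeat the same size with opposite sign. Depth limits the lowest genes, the 44 genes having a median of 98.5 reads in sham P56.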
